A study of Oryza sativa Indica Group with 9 samples.

Results

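The copper miRNAs miR397, miR398 and miR408 were followed in leaves of heated rice seedlings, as small RNAs and through the cleaved RNAs of their targets. Every listed mature sequence named for one of these families was taken, which gave 9 of 483 distinct sequences (10 of 588 list entries): 4 of miR397, 1 of miR398 and 4 of miR408. On the target side, all 18 of 1364 degradome rows of these families were taken, which cover 8 target loci among 507 pairs of a family and a locus. The plants were three-leaf seedlings of the heat-tolerant Indica line HT54, and leaves were collected after 0, 12 or 24 h at 45 °C. Small RNA was read in 2 libraries per time point, numbered 1 and 3, and the degradome, which records the 5′ ends of cleaved polyadenylated RNA, in 1 library per time point. No group of unheated leaves of 12 or 24 h was among the samples, so heat and elapsed time cannot be told apart. The tables hold no mRNA levels, so the leaf label could not be checked against leaf marker genes. In such bulk samples, fewer cells that make an RNA and less RNA per cell cannot be told apart.

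Plant miRNAs are cut from hairpin precursors by a Dicer-like enzyme, loaded into Argonaute and guide the cleavage of RNAs to which they pair almost fully. miR397, miR398 and miR408 are known in Arabidopsis and rice as copper miRNAs: a transcription factor of the SPL family raises them when copper is scarce, and they lower the mRNAs of copper proteins that the plant can spare. miR397 acts on laccases, copper oxidases that polymerise lignin in the cell wall. miR398 acts on copper/zinc superoxide dismutases, which remove superoxide, and in Arabidopsis it is known to be raised by heat. miR408 acts on small blue copper proteins (cupredoxins, plantacyanin) and on laccases.

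The member sequences are shown because several of them are shifted or extended forms of the database miRNAs, and the shift changes the seed. Each is written 5′ to 3′ as deposited, with the seed (bases 2 to 8) in capitals.
osa-MIR397b-p5: tTGAGTGCagcgttgatgaacc
osa-MIR397a-p5: tTGAGTGCagcgttgatgaac
aly-miR397a-5p_R+2: tCATTGAGtgcagcgttgatgtt
osa-MIR397b-p3: tCACCAGCactgcacccaatc
osa-miR398b: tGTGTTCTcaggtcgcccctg
osa-miR408-3p: cTGCACTGcctcttccctggc
ata-miR408-3p_R+2_1ss19CG: tGCACTGCctcttccctggctt
gma-miR408a-3p_L-1R+3: tGCACTGCctcttccctggcttt
osa-miR408-5p_L+1R-1: aCAGGGATgaggcagagcatg
Of the 9 sequences, 5 had 21 nt, 2 had 22 nt and 2 had 23 nt, and 7 began with T, against 40.8% of all 483 sequences. They held 7 distinct seeds. TGAGTGC was shared by the pair of 5′ arm forms of miR397 from the rice precursors and GCACTGC by the 22-nt and 23-nt forms of miR408. No other listed sequence carried any of these 7 seeds.

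The abundant 5′ arm reads of miR397 did not start where the database miRNA starts. The authors' table marks these 21-nt database miRNAs in the rice precursors, with the seed again in capitals.
annotated in osa-MIR397b: tTATTGAGtgcagcgttgatg
annotated in osa-MIR397a: tCATTGAGtgcagcgttgatg
Both osa-MIR397b-p5 and osa-MIR397a-p5 start 3 nt downstream of that position, at base 14 of the hairpin and not at base 11. The 21-nt osa-MIR397a-p5 is the beginning of the 22-nt osa-MIR397b-p5 and stands in both hairpins, so its reads cannot be assigned to 1 of them. The 22-nt form matches only the hairpin of osa-MIR397b. The form in the annotated register, aly-miR397a-5p_R+2, had between 1.5 and 7.5 reads per library, and its tail tt is not in the osa-MIR397a hairpin, which has aa there. It was the one member under the filter of 10 reads in 2 libraries. In CPM, reads set to a common library total, it lay at 78.4 and 76.5 before heating, at 27.1 and 130 after 12 h, and at 24.1 and 21.5 after 24 h. A count of 3 reads corresponds to between 16.1 and 195 CPM, so these levels are at or near the limit of detection.

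The hairpin of osa-MIR397b, on chromosome 2, is printed to show both arms, which are in capitals and were both read in every library.
osa-MIR397b: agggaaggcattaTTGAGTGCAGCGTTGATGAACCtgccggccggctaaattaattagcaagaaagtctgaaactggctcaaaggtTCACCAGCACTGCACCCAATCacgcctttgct
It covers 118 nt on the minus strand at chr2:3280781-3280898. osa-MIR397a is listed at chr6:28489785-28489898 on the plus strand and osa-MIR398b at chr7:14598617-14598704 on the minus strand. osa-MIR408 is listed at chr1:12301661-12301845 on the plus strand. The genome build of these coordinates, and what else is annotated there, are not stated in the available sources. In osa-MIR408 the annotated 3′ arm starts at base 153, where osa-miR408-3p also starts. Set against the deposited hairpin, the 22-nt and 23-nt forms start 1 nt later, at base 154. They end in 1 or 2 t where that hairpin has c. Only in this sense are they called shifted and tailed forms of the same arm here. Whether line HT54 or another locus carries these bases was not tested. osa-miR408-5p_L+1R-1 starts 1 nt before the annotated 5′ arm. osa-miR398b has its annotated start.

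The 6 small RNA libraries held between 10314 and 227965 listed reads, so their precision differs. Replicate 3 at 12 h was the shallowest. Log2 levels over 459 sequences correlated at r = 0.674 between the 12 h libraries, against 0.867 at 0 h and 0.852 at 24 h. Replicate 1 at 12 h was closer to the 24 h libraries (r = 0.854 and 0.888) than to its own replicate, and every value at 12 h is therefore given by library. Of the 9 members, 8 passed the filter and were tested with edgeR among 459 sequences. Statements below on libraries that lie apart or overlap only describe the values. How many of all sequences or families lie apart in the same way was not counted.

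miR408 and miR397 were common and miR398 rare in unheated leaves: by summed reads they ranked 17, 19 and 71 of 132 families at 0 h. CPM of family sums use scaling factors fitted to families, and CPM of single sequences use factors fitted to sequences. They cannot be set against each other: osa-miR398b, the only miR398 sequence, has other CPM below from the same reads. The miR408 family sum was 11818 and 18488 CPM at 0 h, 2106 and 17076 CPM after 12 h, and 2590 and 6587 CPM after 24 h (replicates 1 and 3). Both 24 h libraries lay below both 0 h libraries, while replicate 1 of 12 h lay below the 24 h libraries and replicate 3 within the 0 h range. The miR397 family sum was 10589 and 12132 CPM at 0 h, 12259 and 29760 CPM after 12 h, and 11779 and 6301 CPM after 24 h. At 12 h both libraries were above both 0 h libraries, and at 24 h they overlapped them. The miR398 family sum was 531 and 694 CPM at 0 h, 482 and 976 CPM after 12 h, and 352 and 457 CPM after 24 h. It was lowest at 24 h, with overlap between 12 h and 0 h. At 0 h, miR398 was below the other two families in both libraries, and miR397 and miR408 did not differ beyond the spread of their libraries (11360 ± 1091 and 15153 ± 4716 CPM, mean ± SD, n = 2).

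No family sum passed the test. At 24 h against 0 h the log2 change was -1.72 ± 0.83 for miR408 (SE; adjusted p = 0.238, unadjusted p just under 0.05), -0.60 ± 0.64 for miR398 (adjusted p = 0.707) and -0.33 ± 0.65 for miR397 (adjusted p = 0.867), while 14.5% of the 124 tested families passed. At 12 h against 0 h it was -0.68 ± 0.81 for miR408 (adjusted p = 0.724), 0.14 ± 0.67 for miR398 (adjusted p = 0.971) and 0.88 ± 0.65 for miR397 (adjusted p = 0.605), and 3.23% of families passed. At 24 h against 12 h it was -1.04 ± 0.82, -0.74 ± 0.67 and -1.21 ± 0.66 for miR408, miR398 and miR397 (adjusted p = 0.684, 0.730 and 0.573), and 1.61% of families passed. Of these 9 family tests, 1 had an unadjusted p under 0.05, that of miR408 at 24 h against 0 h, where 26 of all 124 families did. At 12 h against 0 h 16 of 124 did, and at 24 h against 12 h 9 of 124. DESeq2 and limma called none of the 9. The 12 h replicates decided the miR408 value at 12 h. Without replicate 3 the change at 12 h against 0 h was -2.74 (adjusted p = 0.0491), and without replicate 1 it was 0.14. Without replicate 3 of 12 h the family also passed at 24 h against 0 h, at -1.89 (adjusted p = 0.0434).

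**Figure D1:**
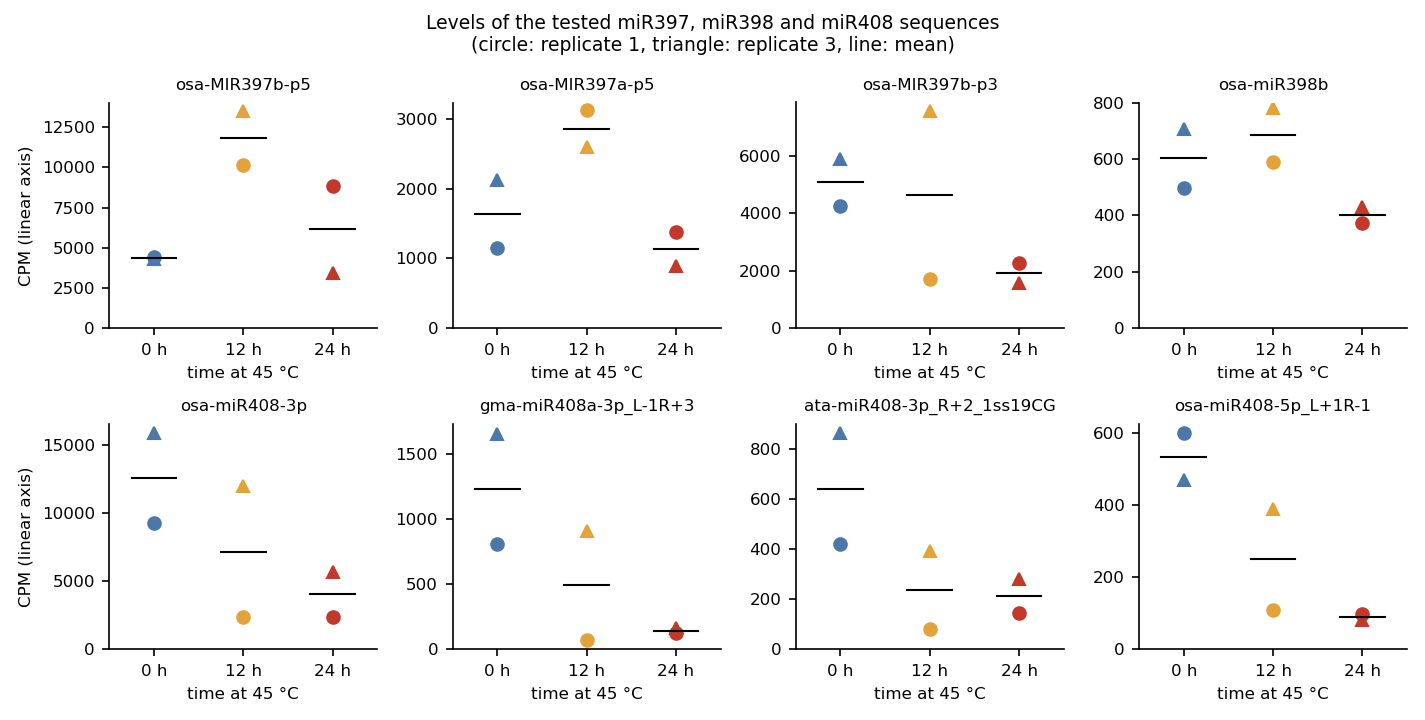
Level of each tested member in CPM (vertical axes, linear from 0) against hours at 45 °C, with circles for replicate 1, triangles for replicate 3 and a line for the mean of the 2 libraries. For osa-miR408-3p the 24 h points are at 2388 and 5665 CPM and the 0 h points at 9226 and 15882 CPM; osa-MIR397b-p5 is at 10117 and 13528 CPM at 12 h, against 4391 and 4305 CPM at 0 h.

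Of the 8 tested members, 2 changed at 24 h against 0 h, both of miR408 and both lower, where 9.59% of all tested sequences were called and 6.97% were called lower. The 23-nt gma-miR408a-3p_L-1R+3 had 810 and 1655 CPM at 0 h, 67.7 and 911 CPM after 12 h, and 121 and 161 CPM after 24 h. Both 24 h libraries were below both 0 h libraries, and the change was -3.11 ± 0.78 (log2 ± SE; edgeR adjusted p = 0.00304). The passenger strand osa-miR408-5p_L+1R-1, the arm that is mostly discarded, had 601 and 469 CPM at 0 h, 108 and 390 CPM after 12 h, and 96.5 and 80.5 CPM after 24 h. The groups at 24 h and 0 h did not overlap, and the change was -2.58 ± 0.82 (adjusted p = 0.0263). These calls rest on few reads: the 24 h libraries held 9.5 and 29.8 reads of the 23-nt form and 8 and 15 reads of the passenger strand. They also rest on single libraries. The 23-nt form did not pass without replicate 3 of 0 h (-2.56, adjusted p = 0.203), replicate 1 of 24 h (-2.94, 0.0823) or replicate 3 of 24 h (-3.17, 0.0535). The passenger strand did not pass when any 1 of the 4 libraries of 24 h and 0 h was left out (adjusted p from 0.0937 to 0.1996). With limma both had an adjusted p of 0.104.

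The main guide strand, osa-miR408-3p, made up between 83.5 and 91.6% of the family's reads. It had 9226 and 15882 CPM at 0 h, 2323 and 11967 CPM after 12 h, and 2388 and 5665 CPM after 24 h. The 24 h libraries were both below the 0 h libraries, with a change of -1.64 ± 0.73 that did not pass (adjusted p = 0.141). The 22-nt ata-miR408-3p_R+2_1ss19CG had 418 and 861 CPM at 0 h, 81.3 and 390 CPM after 12 h, and 145 and 279 CPM after 24 h. All 4 heated libraries were below both 0 h libraries, an order whose share over all sequences was not counted. Neither the change at 24 h (-1.59 ± 0.75, adjusted p = 0.183) nor that at 12 h (-1.88 ± 0.87, adjusted p = 0.277) passed.

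No miR397 sequence passed the test. The 22-nt guide osa-MIR397b-p5 had 4391 and 4305 CPM at 0 h, 10117 and 13528 CPM after 12 h, and 8841 and 3453 CPM after 24 h. It was highest at 12 h, with both 12 h libraries above both 0 h libraries, but the change of 1.44 ± 0.72 did not pass (adjusted p = 0.354), and the 24 h libraries lay on either side of the 0 h level (0.50 ± 0.71, adjusted p = 0.731). The 21-nt osa-MIR397a-p5 had 1150 and 2124 CPM at 0 h, 3128 and 2601 CPM after 12 h, and 1375 and 891 CPM after 24 h. It too was highest at 12 h without passing (0.80 ± 0.72, adjusted p = 0.662), and at 24 h its change was -0.54 ± 0.72 (adjusted p = 0.708). The 3′ arm osa-MIR397b-p3 had 4260 and 5874 CPM at 0 h, 1706 and 7544 CPM after 12 h, and 2268 and 1557 CPM after 24 h. The 12 h libraries enclosed the 0 h values (-0.16 ± 0.71, adjusted p = 0.967), and the 24 h libraries were below them (-1.41 ± 0.72, adjusted p = 0.222).

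osa-miR398b, the only listed sequence of its family and the guide for superoxide dismutase mRNA, had 497 and 708 CPM at 0 h, 589 and 780 CPM after 12 h, and 374 and 430 CPM after 24 h. The 12 h and 0 h libraries overlapped (0.14 ± 0.75, adjusted p = 0.969), and the 24 h libraries were below both (24 h against 0 h -0.59 ± 0.73, adjusted p = 0.680). It rested on between 12 and 87 reads per library.

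At 12 h against 0 h, edgeR called 0 of the 8 tested members among 459 sequences, of which 3.27% were called. Of the 8, 3 had an unadjusted p under 0.05, as did 61 of all 459, and DESeq2 and limma called none of the 8. Without replicate 3 of 12 h, 1 member passed, the 23-nt miR408 form at -4.18 (adjusted p = 0.0264). At 24 h against 12 h, edgeR, DESeq2 and limma also called 0 of 8, none had an unadjusted p under 0.05 (36 of all 459 did), and 0.218% of all sequences were called. The median log2 change of the 8 members was -0.49 at 12 h and -1.50 at 24 h against 0 h, and -1.05 at 24 h against 12 h. Over all 459 sequences the medians were -0.03, 0.00 and 0.01. Of the 8 members, 7 had a negative change at 24 h against 0 h, and osa-MIR397b-p5 was at 0.50. The share of all sequences with a negative change was not counted. Of the 8, 5 had an unadjusted p under 0.05, as did 103 of all 459 sequences. The members are not independent, since 4 match the osa-MIR408 hairpin over 21 nt and others share the osa-MIR397b hairpin. These medians and counts therefore describe the list and are no test.

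**Figure D2:**
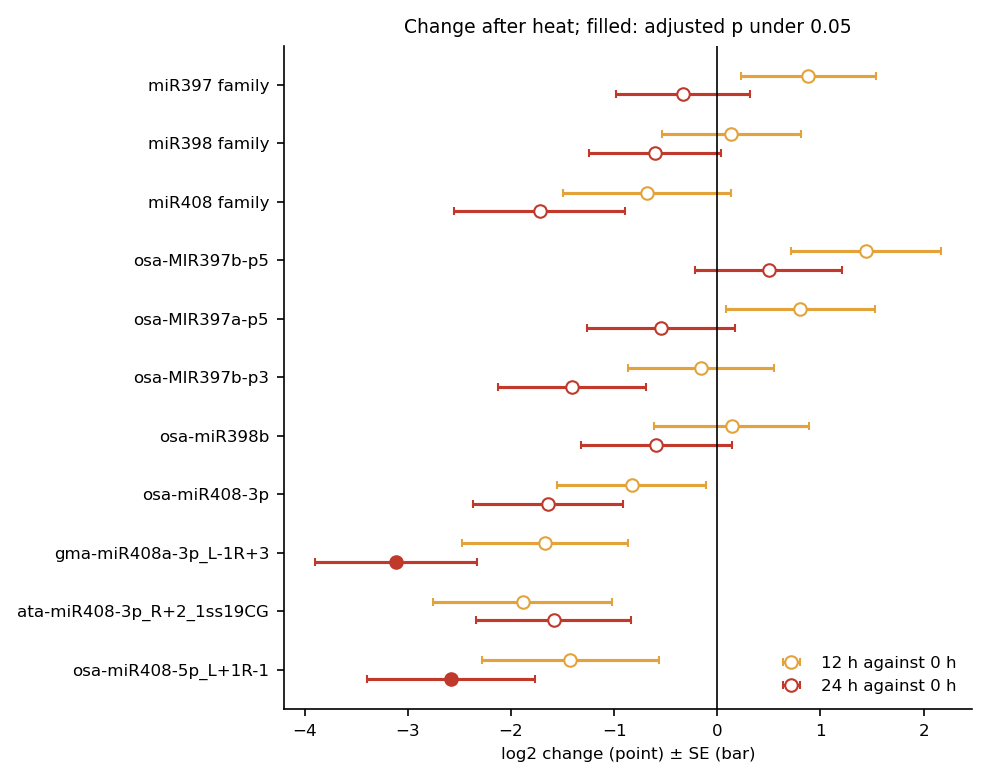
Log2 change (horizontal axis) with its SE for the 3 family sums and the 8 tested members, at 12 h (orange) and 24 h (red) against 0 h, with filled points for an adjusted p under 0.05. The filled points are the 23-nt miR408 form at -3.11 and the miR408 passenger strand at -2.58, both at 24 h.

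Ratios within a precursor do not depend on how libraries are scaled. The 5′ to 3′ arm read ratio of MIR397b was taken as the 22-nt osa-MIR397b-p5 over osa-MIR397b-p3. It was 1.03 and 0.734 before heating, 5.93 and 1.80 after 12 h, and 3.90 and 2.22 after 24 h. Both arms were thus about equal in unheated leaves, and the 5′ arm exceeded the 3′ arm in all 4 heated libraries. The mean log2 ratio was 1.63 in heated leaves and -0.20 at 0 h, a difference of 1.83. The exact permutation p of 0.133 (2-sided, 4 heated against 2 unheated libraries) is the smallest that this design can give, and it was 0.50 after Benjamini-Hochberg adjustment over the 12 ratio and share comparisons made. Of 51 precursors with at least 100 reads on each arm, 5.88% had all 4 heated ratios above both unheated ones, and 21.6% had no overlap in either direction. These ratios were chosen after the levels had been seen.

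The shifted and tailed forms of miR408 held a lower share of its 3′ arm reads in each heated library than in either unheated one. Their share was 11.7% (95% Wilson interval 8.95 to 15.3%) and 13.7% (12.2 to 15.3%) before heating. It was 5.90% (4.02 to 8.98%) and 9.66% (6.44 to 14.7%) after 12 h, and 9.79% (6.70 to 14.7%) and 7.20% (5.85 to 8.86%) after 24 h. The shares of heated and unheated libraries did not overlap. How often variant shares of other families lie apart in this way was not counted. For arm ratios, 21.6% of 51 precursors had no overlap in either direction. The counting interval of replicate 3 of 24 h lay below both unheated intervals, and that of each other heated library overlapped at least 1 of them. The mean summed share was 8.14% in heated and 12.7% in unheated leaves, 4.57 percentage points lower (exact permutation p = 0.133, adjusted p = 0.50). The 23-nt form alone held 7.71 and 9.01% before heating, 2.61 and 6.71% after 12 h, and 4.33 and 2.62% after 24 h. The 22-nt form alone held 4.00 and 4.68% before heating, 3.29 and 2.95% after 12 h, and 5.47 and 4.57% after 24 h. Its share thus overlapped between heated and unheated libraries, and the summed share does not describe both forms alike. The ratio of osa-miR408-3p to the 5′ arm of miR408 overlapped between the groups, at 21.4, 30.7, 24.8 and 70.3 in the heated libraries and 15.3 and 33.9 at 0 h. The share of the 21-nt form in the miR397 5′ reads also overlapped, at between 13.5 and 23.6% in heated and at 20.9 and 32.96% in unheated leaves.

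**Figure D3:**
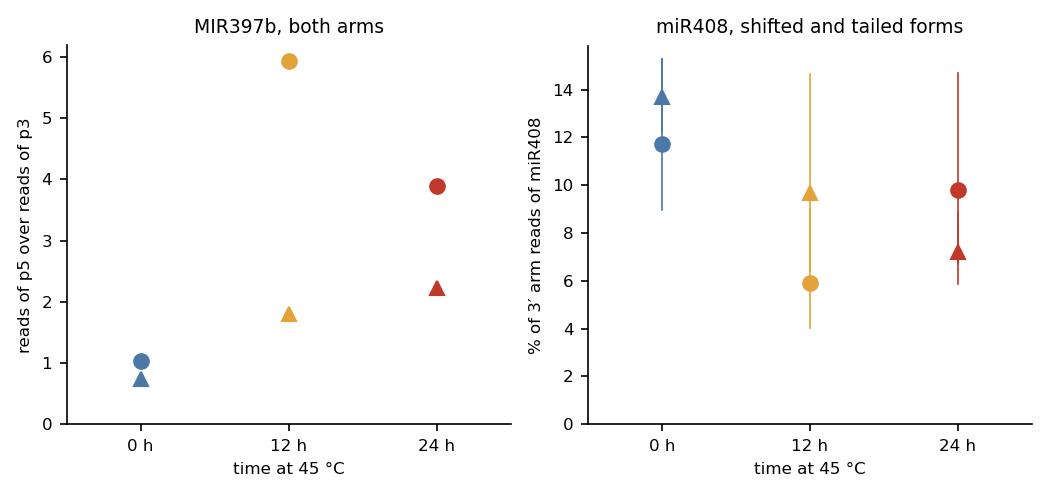
Left, reads of the 5′ arm over reads of the 3′ arm of MIR397b; right, the share of shifted and tailed forms among the 3′ arm reads of miR408 with 95% Wilson intervals; both against hours at 45 °C, with circles for replicate 1 and triangles for replicate 3. The heated ratios run from 1.80 to 5.93, above 1.03 and 0.734 at 0 h, and the heated shares from 5.90 to 9.79%, below 11.7 and 13.7% at 0 h.

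In the degradome the strongest site of the 3 families was that of miR408 in LOC_Os08g37670, described in the authors' table as a cupredoxin superfamily protein, a small blue copper protein. Its cleavage site at transcript position 668 held 1032 reads in the 0 h library, 158 after 12 h and 162 after 24 h. In TPB, the authors' signal per raw reads of a library, this was 82204, 14320 and 12499, which ranked it 1, 2 and 3 of 507 pairs of a family and a locus. The site kept category 0, the class for the highest signal of a transcript, at all 3 times. Scaled to raw reads, the signal was 5.74-fold lower at 12 h (exact 95% interval 4.85 to 6.83) and 6.58-fold lower at 24 h (5.57 to 7.81) than at 0 h. The 24 h to 12 h ratio was 0.873 (0.697 to 1.09), so the heated libraries differed by less than counting error. With 1 library per time point there is no replicate check, and these intervals cover counting error only. It was 1 of 2 loci of the 3 families with at least 10 reads, and the one past 2-fold at either time. Among the loci of the whole table with that many reads, 48.8% of 43 were past 2-fold lower at 12 h and 36.4% of 44 at 24 h. Its log2 ratio was -2.52 at 12 h (the 6th lowest of 43, median -0.93) and -2.72 at 24 h (the 5th lowest of 44, median -0.40). Without mRNA levels, the extent of cleavage and the amount of target RNA cannot be told apart.

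The miR398 site in LOC_Os07g46990, annotated as copper/zinc superoxide dismutase 1 (CSD1), lies at transcript position 135. It held 29 reads in the 0 h library, 47 after 12 h and 16 after 24 h (2310, 4260 and 1235 TPB), category 0 each time, and ranked 13, 9 and 17 of 507. The signal was higher at 12 h than at 0 h by a ratio of 1.84 (exact 95% interval 1.14 to 3.04), under the 2-fold mark, which 9.3% of loci passed upward. At 24 h the ratio to 0 h was 0.534 (0.271 to 1.02), which includes no change, and the ratio to 12 h was 0.290 (0.153 to 0.520). CSD1 thus had its highest signal at 12 h, where the cupredoxin signal was already low. The miR398 site in LOC_Os01g68770, annotated as selenium-binding protein 1 (SBP1), had 0, 5 and 1 reads at 0, 12 and 24 h.

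**Figure D4:**
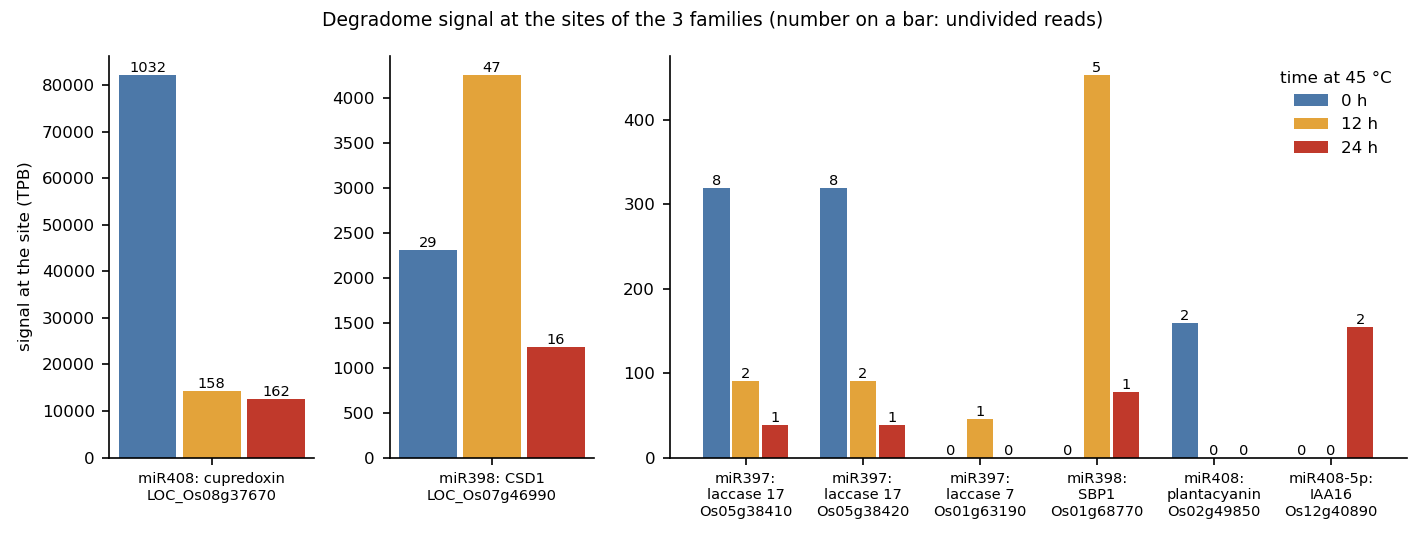
Degradome signal in TPB (vertical axes, each panel with its own scale from 0) at the best site of each of the 8 target loci at 0, 12 and 24 h, 1 library each, with the undivided reads above each bar. The cupredoxin bar is 82204 TPB at 0 h and 14320 and 12499 TPB after heat, while CSD1 is highest at 12 h with 4260 TPB.

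The laccase sites of miR397 held few reads. LOC_Os05g38410 and LOC_Os05g38420, both annotated as laccase 17, share the same reads at position 755, so they cannot be told apart: 8 reads in the 0 h library, 2 after 12 h and 1 after 24 h, which the authors divided between them. The category of the site was 0, 2 and 4 in that order of times. The 24 h to 0 h ratio was 0.121 with an exact 95% interval from 0.00273 to 0.903, and the 12 h interval (0.0294 to 1.43) includes no change. Position 755 lies opposite base 10 of the shifted forms osa-MIR397a-p5 and osa-MIR397b-p5 printed above. The site that lies opposite base 10 of the annotated register, position 758, was 3 nt away and had 1 read at 0 h and none later. Laccase 7 (LOC_Os01g63190) had 0, 1 and 0 reads. No row was listed for the 3′ arm osa-MIR397b-p3.

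The remaining miR408 sites were weak. Plantacyanin (LOC_Os02g49850), a secreted blue copper protein, had 2, 0 and 0 reads at position 141, opposite base 10 of osa-miR408-3p, and 1, 0 and 1 reads at position 140, opposite base 10 of the shifted 22-nt and 23-nt forms. The 5′ arm osa-miR408-5p_L+1R-1 was assigned to LOC_Os12g40890, annotated as the auxin response protein IAA16, with 0, 0 and 2 reads. A count of 0 allows up to 3 reads. With the best site of each locus summed, which leaves out position 140 of plantacyanin, the cupredoxin site held 99.8, 100 and 98.8% of the miR408 signal at 0, 12 and 24 h. In all 18 rows the cleaved base lay opposite base 10 of the miRNA, as it did in 1195 of the 1364 rows of the whole table. This was counted from the end of the listed target range, without regard to gaps in the pairing. It describes the listed rows and is no test of cleavage. The authors' p-value of a site in a library was under 0.05 only for the cupredoxin and CSD1 sites, and for position 755 of the laccases at 0 h.

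A search of the descriptions for copper protein words (such as copper, cupredoxin, laccase and superoxide dismutase) matched 8 of the 507 pairs in the table: 3 of miR397, 1 of miR398, 1 of miR408 and 3 of miR528. The words did not include plantacyanin, so that miR408 target is not among the 8, and other copper proteins may likewise be missed. miR528, a monocot miRNA that also acts on copper proteins, fell at 24 h against 0 h (family change -2.40 ± 0.72, adjusted p = 0.0315). Its guide osa-miR528-5p had 16728 and 21335 CPM at 0 h, 6534 and 15284 CPM after 12 h, and 5826 and 2277 CPM after 24 h (24 h against 0 h -2.23 ± 0.75, adjusted p = 0.0349), and its passenger osa-miR528-3p changed by -3.78 ± 0.78 (adjusted p = 0.000115). The family did not pass without replicate 1 of 0 h, replicate 3 of 0 h or replicate 3 of 24 h (adjusted p = 0.162, 0.138 and 0.132), the guide without any 1 of the 4 libraries of 24 h and 0 h (0.0759 to 0.350), and the passenger without replicate 1 of 0 h (-2.43, 0.187). The guide also did not pass with the replicate block (0.119), limma (0.104), library totals without the top 3 sequences (0.0575) or a minimum of 50 reads (0.0705). The miR528 site in another cupredoxin gene, LOC_Os07g38290, had 505, 18 and 15 reads at 0, 12 and 24 h. Whether miR528 and miR408 differ in their change was not tested.

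Across the 6 libraries, log2 family sums correlated at r = 0.793 between miR398 and miR408, 0.731 between miR397 and miR398, and 0.332 between miR397 and miR408, as a description of libraries that share depth and scaling. Among 380 sequences of other families with a mean of at least 100 CPM, the closest to miR408 were sbi-miR394a_L+1 (r = 0.975), osa-miR156c-3p (0.948) and osa-miR2106_L+1R+1 (0.912). The closest to miR398 were osa-MIR5816-p3_1ss3AG (0.932), sbi-miR394a_L+1 (0.858) and osa-MIR814b-p5_2 (0.849). For miR397 they were osa-miR2877_1ss16TA (0.953), osa-miR7694-5p (0.923) and osa-MIR2122-p5 (0.900). These are the highest of 380 correlations over only 6 libraries, so high values are picked by the rule itself, and they are description only. Family sums and single sequences were also scaled separately.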

How the data were processed

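Small RNA of 15 to 30 nt was sequenced, per the labels' protocols. The authors deposited estimated counts, reads per mature sequence divided among matching positions, and a normalized signal, each raw value times 1 constant per library. Per the file headers, the degradome table holds the read count at each site, that count split over matching transcripts (estimated counts), a signal in divided reads scaled to raw reads (TPB), a category score and an alignment score. The deposited chi-square p-value, which compares the 3 libraries, was not used as a test. All 382 rows with a single read had such a p-value under 0.05. A separate p-value is deposited for each site in each library, and the column headers do not name its test. At the cupredoxin site it was 0.0047, 0.0049 and 0.0051 at 0, 12 and 24 h. At the CSD1 site it was 0.0017, 0.0018 and 0.0019. At position 755 of LOC_Os05g38410 and LOC_Os05g38420 it was 0.0045, 0.355 and 0.497. At every other listed site of the 3 families it was 0.126 or higher where given. It was not used to choose sites. The deposited ANOVA p-value of each miRNA was not used either. The mapper, the target finder and the genome build are not stated in the available sources.

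Each distinct sequence was used once, and families were summed by number (132). TMM factors were computed separately for sequences and for families, so their CPM differ in scale. Estimated counts were rounded and tested, where 2 or more libraries held 10 reads or more, with edgeR's quasi-likelihood test (edgeR 4.0.16, R 4.3.3, TMM, 2-sided, Benjamini-Hochberg adjustment over all 459 sequences or 124 families, threshold 0.05), with time point as the only factor. The test had been planned for whole counts. SE is the log2 change over the square root of F. For sequences the prior degrees of freedom were infinite, so SE and p rest on a spread shared over sequences (biological coefficient of variation 0.468). The fit was run on simulated counts with known fold changes and the same dispersion for all sequences, to check that median log2 changes were recovered. No false-call rate is given here, so this check does not bear on the p-values. DESeq2 1.42.0 and limma 3.58.1 (on log2 of the normalized signal plus 1) were alternatives, and exact permutation tests used SciPy 1.17.1.

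Degradome libraries held 12554074, 11033581 and 12960708 raw reads at 0, 12 and 24 h. Ratios used undivided reads over raw reads with exact 95% intervals. For each family and locus the row with the highest signal was kept. Reads carry no molecular identifiers, so intervals and floors cover counting error only. Per the labels, the small RNA samples were independent, and the submitters left out 1 library per time point as unsuitable, so the spread of the remaining 2 may be smaller than that of all.

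The members, the lists and the copper words were chosen with earlier results of these data known. The naming rule gave every member sequence with at least 100 reads its value in each library, named all target loci of the 3 families and the most abundant miR528 sequence of each arm, and took the 3 sequences closest to each family by Pearson correlation of log2(CPM + 1). LOC_Os descriptions are the authors'.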

Additional observations from a re-analysis of the deposited data

How the results depend on the processing

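Leaving out each small RNA library in turn moved the family changes most. At 12 h against 0 h the range was 0.23 to 1.36 for miR397, -0.25 to 0.62 for miR398 and -2.74 to 0.14 for miR408. At 24 h against 0 h it was -0.72 to 0.067, -0.80 to -0.27 and -2.53 to -1.07, and at 24 h against 12 h it was -1.67 to -0.68, -1.11 to -0.51 and -1.90 to 0.85. Where a time point keeps 1 library, it is assumed to vary like the others. The count of members past the threshold ran from 0 to 1 at 12 h and from 0 to 2 at 24 h against 0 h, and was 0 at 24 h against 12 h in each. It was 0 at 24 h against 0 h with limma, and 0 with a minimum of 50 reads, which leaves both called sequences untested.

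The miR398 change at 12 h against 0 h was -0.036 without a filter and -0.044 with rice-named sequences only. Among single sequences, leaving out libraries gave ranges with both signs at 12 h against 0 h for osa-miR408-3p (-2.44 to 0.18), osa-miR398b (-0.079 to 0.60) and osa-MIR397b-p3 (-1.57 to 0.81). At 24 h against 0 h this held for osa-MIR397b-p5 (-0.37 to 1.17). At 24 h against 12 h it held for gma-miR408a-3p_L-1R+3 (-2.74 to 1.06), ata-miR408-3p_R+2_1ss19CG (-0.92 to 1.40), osa-miR408-3p (-1.64 to 0.80) and osa-MIR397b-p3 (-2.07 to 0.16). osa-MIR397b-p3 at 12 h against 0 h was 0.24 with library totals computed without the top 3 sequences and 0.076 with a minimum of 50 reads. Those totals shifted the median of all sequences by 0.26 (12 h against 0 h) and -0.20 (24 h against 12 h), and limma by -0.21 and 0.28. The cause of these changes was not tested. The alternatives for the degradome changed no direction and no 2-fold call of a target locus. The summed signal of the miR398 loci was 2310 TPB at 0 h and 4713 TPB at 12 h. Its log2 ratio ran from 0.88 to 1.04 over the alternatives, on both sides of 2-fold.

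With a replicate block the miR408 family change was -1.92 at 24 h (adjusted p = 0.152) and -1.23 at 12 h against 0 h, and 2 members passed at 24 h. Calls over all sequences were 7, 29 and 0 with the block, against 15, 44 and 1 without it (12 h and 24 h against 0 h, 24 h against 12 h). Deviations of same-numbered libraries correlated at -0.157, 0.0966 and -0.125, so no strong common deviation by replicate number was seen. Whether same-numbered libraries share a batch was not tested. The arm ratio difference of MIR397b (1.52 to 2.09 with a library left out) and the share difference of the shifted miR408 forms (-5.55 to -3.58 points), checks chosen after seeing the data, kept their sign.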
